A study of Drosophila melanogaster with 4 samples.

Results

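The gap and pair-rule genes set up segments in the early Drosophila embryo, and 10 of them were examined here in a much later tissue, the wing imaginal disc: the gap genes hunchback (hb), Krüppel (Kr) and giant (gt) and the pair-rule genes even-skipped (eve), runt (run), odd-skipped (odd), fushi tarazu (ftz), paired (prd), sloppy paired 1 (slp1) and sloppy paired 2 (slp2). They were matched by symbol in a RefSeq gene table on the dm6 assembly, and all 10 matched, out of 13922 protein-coding genes on the main arms (X, 2L, 2R, 3L, 3R and 4). Each gene was read over its span and 10 kb on either side, its window. The assay was anti-GFP CUT&RUN, in which a nuclease held by an antibody releases DNA at the sites that the antibody marks. It was run on wing discs of female larvae in late larval life, at the wandering stage, with 2 libraries from larvae of genotype Osa-GFP and 2 libraries from larvae of genotype yw, raised at 25 °C, with 20 to 22 discs per library. Osa-GFP larvae carry a GFP-tagged form of Osa, the ARID-domain subunit that defines 1 class of the SWI/SNF nucleosome remodeler. The yw larvae carry no GFP and give what the same antibody and nuclease return without the tag. How the GFP tag was inserted and whether the libraries of a genotype came from separate crosses are not stated in the labels, so the spread between libraries may be technical.

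In the embryo, gap genes are switched on in broad domains by maternal factors, and pair-rule genes follow in stripes. Some of these stripes are driven by separate enhancers that lie beside the gene and read the gap proteins. All 10 encode transcription factors. Their early embryonic expression is brief, and several of them are used again later in other places, such as eve in neurons and pericardial cells and odd in the leg joints. Peak lists hold no transcript levels, so expression of these genes in the disc was not measured.

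A peak here is an interval called by the authors in 1 library. Peaks of the 4 libraries that overlapped by 1 bp or more were merged into regions. A region with peaks of both Osa-GFP libraries and of no yw library is called Osa-GFP-specific, one with peaks of both Osa-GFP libraries and at least 1 yw library shared, and one with yw peaks alone yw-only. There were 5820 and 4987 peaks on these arms for Osa-GFP replicates 1 and 2, against 774 and 4535 for yw replicates 1 and 2. Mean coverage in fragments per position, recovered from the peak caller's folds, was 0.472 and 0.460 in the Osa-GFP libraries, against 0.120 and 0.481 in the yw libraries, so yw replicate 1 was shallow. The weakest peaks had 4 fragments at the summit in each Osa-GFP library and in yw replicate 2, and 3 in yw replicate 1. A gene without a peak therefore had no signal above that level called, which is not the same as no Osa.

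Most of the 10 genes had no peak within 10 kb in any library. This held for gt, eve, run, ftz, prd, slp1 and slp2, which is 7 of 10 genes (70.0%), against 32.0% of all protein-coding genes. Among the 11274 protein-coding genes with a span no longer than that of the longest member (hb, 6843 bp), 36.0% had no peak. Only odd and Kr had peaks of both Osa-GFP libraries in 1 region, and hb had yw peaks alone. The count of 7 is a description with no test, and the gap to the background depended on the window and the threshold. Within the gene span 9 members had no peak, against 80.5% of all genes, with 2 kb on either side 7, against 64.8%, and with 20 kb 2 (run and prd), against 13.7%. At a −log10 q of 5 or more 9 members had no peak within 10 kb, against 59.3% of all genes, and at 10 or more all 10, against 74.8%. Without yw replicate 2, 8 members had no peak within 10 kb, against 48.5% of all genes.

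**Figure D1:**
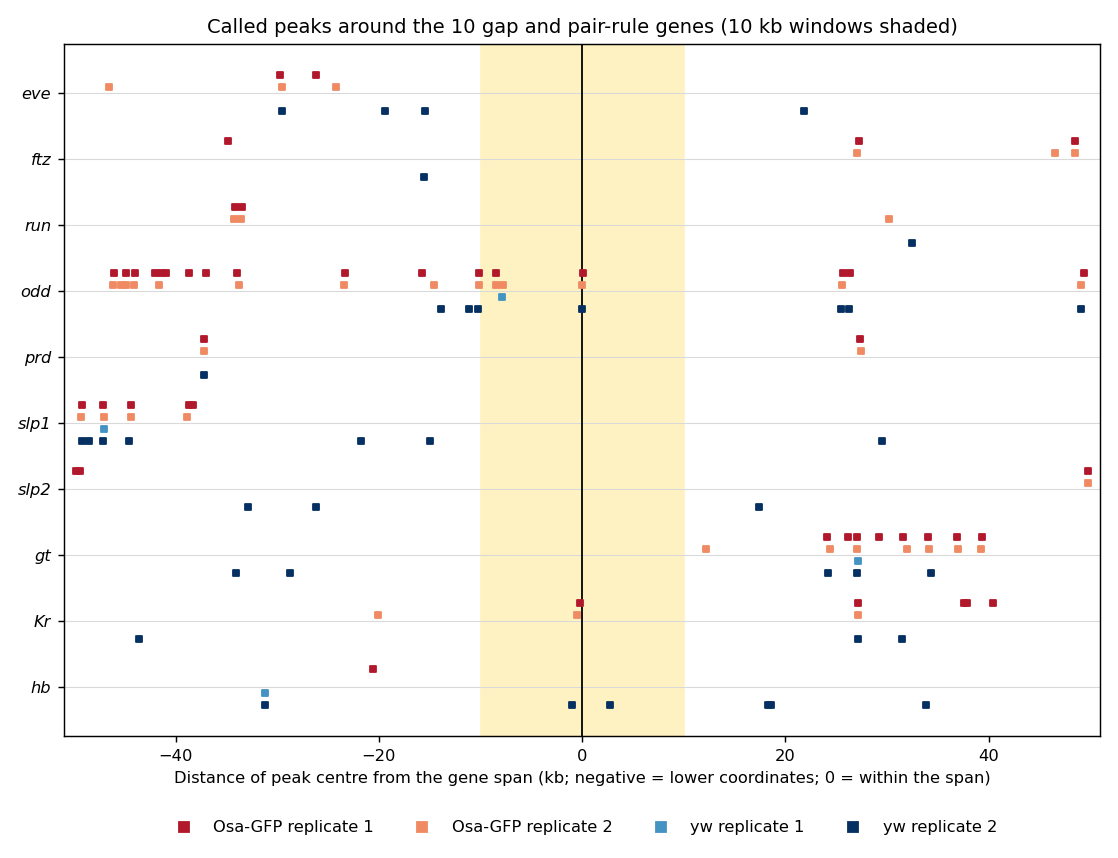
Peaks of each library around the 10 genes, plotted by the distance of the peak centre from the gene span in kb (negative values lie at lower coordinates), with 1 row per gene, 1 colour per library and the 10 kb windows shaded. Only the rows of odd, Kr and hb hold peaks inside the shaded band, and a region that meets the edge of the odd window is centred 10193 bp from the gene.

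The share of these genes with an Osa-GFP-specific region was near that of genes in general. Such regions lay in the windows of 2 of 10 genes (20.0%), odd and Kr, where 15.9% of all protein-coding genes and 12.6% of those no longer than hb had one. Shared regions lay in the window of 1 gene (10.0%), odd, against 17.7% of all genes and 14.3% of those no longer than hb. Counting both kinds, 20.0% of the members had a region that both Osa-GFP libraries held, against 26.3% of all genes and 21.9% of the genes no longer than hb. A yw-only region lay in the window of 1 member (10.0%), hb, against 43.5% of all genes and 39.7% of those no longer than hb. A region of a single Osa-GFP library lay at 1 member (10.0%), odd, against 38.9% of all genes. By library, 2 members had a peak of Osa-GFP replicate 1 and 2 had a peak of Osa-GFP replicate 2, where 40.0% and 37.4% of all genes had one. For yw replicates 1 and 2 these counts were 1 and 2 members, against 12.2% and 52.6% of all genes.

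The gap gene Kr, which encodes a zinc finger repressor of the central embryo, lies on 2R at 25226611 to 25231394, inside the longer span of CG9380. It had 1 region in its window, an Osa-GFP-specific one at 25225891 to 25226588, which ended 23 bp from the lower end of the gene. Neither yw library had a peak there. The caller's fold is a ratio of summit fragments plus 1 over background plus 1. It was 4.76 in Osa-GFP replicate 1 (6 fragments, −log10 q of 4.0) and 4.11 in Osa-GFP replicate 2 (5 fragments, −log10 q of 2.88). Both values were low for their lists: 80.7% of the peaks of Osa-GFP replicate 1 and 91.1% of those of replicate 2 had a fold at least as high. The peak of replicate 1 ran from 25226309 to 25226588 and that of replicate 2 from 25225891 to 25226344, so they met over 36 bp, and Kr had no Osa-GFP-specific region when merging required an overlap of 50% of the shorter peak. Both peaks were also lost at a −log10 q of 5 or more. The gene table gives no strand, so which end of a gene holds its start was not settled.

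The gap gene hb, a zinc finger regulator of the anterior embryo, lies on 3R at 8690980 to 8697822. Its window held 2 regions, both yw-only and both from yw replicate 2. The nearer one, at 8689949 to 8690096, was centred 958 bp below the gene and had a fold of 3.38 with 4 fragments, the weakest level in that list. The other, at 8700497 to 8700620, was centred 2736 bp above the gene, with a fold of 4.05 and 5 fragments. No region with peaks of both Osa-GFP libraries was found near hb: the nearest began 95097 bp from it, and 11.3% of all genes were farther from such a region than hb. The nearest peaks of Osa-GFP replicates 1 and 2 were 20425 and 95171 bp away, against 31133 and 884 bp for yw replicates 1 and 2.

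The gap gene gt, which encodes a bZIP repressor, lies on X at 2427113 to 2428967 and had no peak in its window. The region just outside it, 12132 bp above the gene, held a single peak of Osa-GFP replicate 2 with a fold of 4.11. Farther up, regions that both Osa-GFP libraries held began at 23468 bp, where folds were 9.51 and 12.3 for Osa-GFP replicates 1 and 2, against 4.05 in yw replicate 2. That region and the 4 next ones, up to 39060 bp from gt, overlapped boi, which encodes a Hedgehog co-receptor. The strongest of them by Osa-GFP replicate 2 was shared, at 2455610 to 2456446, with folds of 18.3 and 24.0 for Osa-GFP replicates 1 and 2, against 8.03 and 14.9 for yw replicates 1 and 2.

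The pair-rule gene odd, a zinc finger repressor, lies on 2L at 3604224 to 3606756 and had more regions than any other member, with 4 in its window. The window held 2 and 4 peaks of Osa-GFP replicates 1 and 2, against 1 peak in each of yw replicates 1 and 2. The region that overlapped the gene itself was shared and spanned the gene's upper end, at 3606552 to 3606984. Folds there were 6.80 and 7.53 for Osa-GFP replicates 1 and 2 (9 and 10 fragments), against 4.73 in yw replicate 2 (6 fragments) and no peak in yw replicate 1. This was the strongest Osa-GFP signal at any of the 10 genes, and its −log10 q was 7.60 and 8.84 in the Osa-GFP libraries, against 3.53 in yw replicate 2. Because folds are the caller's values within each list, they were not tested between libraries.

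The Osa-GFP-specific region of odd lay 8350 bp below the gene at 3595601 to 3595874, with folds of 6.12 and 5.48 for Osa-GFP replicates 1 and 2 (8 and 7 fragments). Among all Osa-GFP-specific regions, 74.1% and 75.5% had a fold at least as high in those libraries. Next to it, at 3596231 to 3596512, Osa-GFP replicate 2 had a peak with a fold of 4.79 and yw replicate 1 had one with 3.57. The last region, at 3593833 to 3594230, was shared and reached into the window by 7 bp only. Its folds were 4.08 and 4.79 for Osa-GFP replicates 1 and 2, against 6.75 in yw replicate 2. Without yw replicate 2, the odd window held 3 Osa-GFP-specific regions in place of 1, since both shared regions rested on that library.

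**Figure D2:**
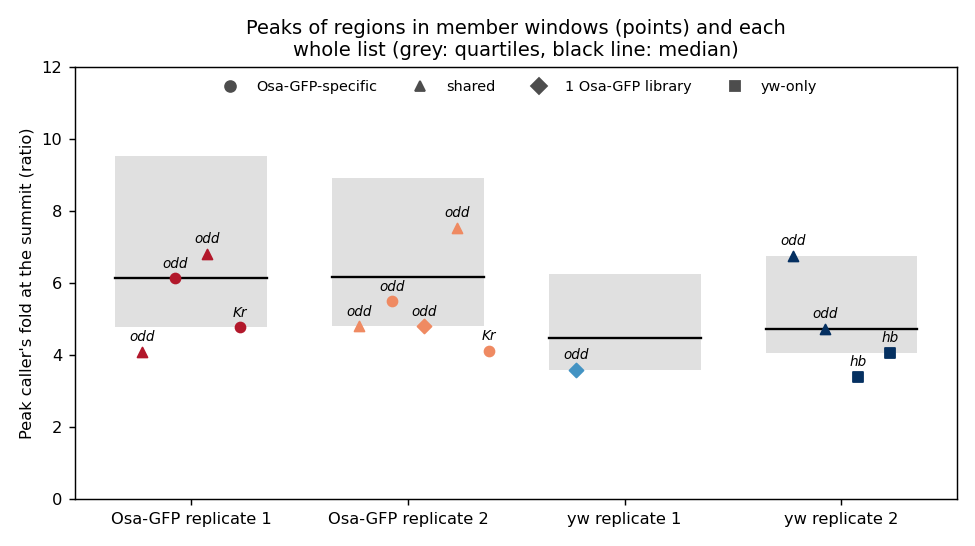
The peak caller's fold (a ratio) at each peak of a region in a member window, by library, with the quartiles (grey) and median (black line) of all peaks of that library. The highest Osa-GFP points are those of the shared region at the upper end of odd, 6.80 and 7.53, near list medians of 6.12 and 6.16, and the Kr points, 4.76 and 4.11, lie below them.

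The other pair-rule genes had no peak within 10 kb. eve, which encodes a homeodomain repressor, lies on 2R at 9979319 to 9980795. Its nearest peaks were 26107 and 24125 bp away for Osa-GFP replicates 1 and 2, with folds of 3.40 and 4.11, against 133857 and 15379 bp for yw replicates 1 and 2. The nearest Osa-GFP-specific region was 164802 bp from eve, and 9.12% of all genes were farther from one. The nearest shared region, 29399 bp away, overlapped Mef2, a muscle differentiation gene, and had folds of 4.76 and 6.85 for Osa-GFP replicates 1 and 2, against 6.75 in yw replicate 2.

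run, the founding Runt-domain gene, lies on X at 20690670 to 20697321. The nearest peaks were 33313 and 30140 bp away for Osa-GFP replicates 1 and 2, against 149890 and 32438 bp for yw replicates 1 and 2. The nearer of its 2 Osa-GFP-specific regions within 50 kb, at 20656983 to 20657357, overlapped Cyp6v1, with folds of 9.51 and 6.85. No shared region lay closer than 357200 bp. Neither run nor prd had a region of any kind within 20 kb.

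ftz encodes a homeodomain protein and sits in the Antennapedia complex, on 3R at 6864324 to 6866244, between the Hox genes Scr and Antp. Its nearest peak was in yw replicate 2, 15506 bp away within Scr, with a fold of 4.05. The nearest peaks of Osa-GFP replicates 1 and 2 were 27176 and 26902 bp away and formed an Osa-GFP-specific region at 6893146 to 6893560 that met no protein-coding gene, with folds of 4.76 and 4.79. Within 10 kb of its long span of 102976 bp, Antp had 15 Osa-GFP-specific and 4 shared regions, so the complex as a whole was not free of Osa-GFP peaks.

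prd, which encodes a protein with a paired domain and a homeodomain, lies on 2L at 12082995 to 12085827. Its nearest peaks were 26994 and 27275 bp away for Osa-GFP replicates 1 and 2, in an Osa-GFP-specific region with folds of 7.47 and 6.85, against 111633 and 37042 bp for yw replicates 1 and 2. The forkhead genes slp1 and slp2 are neighbours on 2L, at 3825675 to 3827099 and 3836840 to 3839185, and their windows overlap by 10260 bp. For slp1 the nearest peaks were 38147 and 38531 bp away for Osa-GFP replicates 1 and 2, against 46913 and 14909 bp for yw replicates 1 and 2. For slp2 they were 49312 and 49594 bp away for Osa-GFP replicates 1 and 2, against 58078 and 17229 bp for yw replicates 1 and 2. On the far side of slp1, 46778 bp away, a shared region in bowl, a relative of odd, had folds of 36.0 and 26.0 for Osa-GFP replicates 1 and 2, against 12.5 and 38.5 for yw replicates 1 and 2. The genes boi, Mef2, Cyp6v1 and bowl were named after their values were seen.

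The distance to the nearest peak was longer at the members than over all genes in 3 of the 4 libraries, and shorter in yw replicate 1. The members' median distance to the nearest peak was 26550 bp in Osa-GFP replicate 1 and 27088 bp in Osa-GFP replicate 2, against 14510 and 16009 bp over all protein-coding genes. In yw replicate 2 the members' median was 16368 bp, against 9020 bp over all genes, and in the shallow yw replicate 1 it was 52850 bp, against 66760 bp. For the nearest region that both Osa-GFP libraries held, the members' median was 28196 bp, against 25780 bp over all genes and 27954 bp over the genes no longer than hb. By class, the median distance was 35018 bp for Osa-GFP-specific regions, against 43528 bp over all genes, and 40555 bp for shared regions, against 42682 bp. For yw-only regions it was 16368 bp, against 12903 bp over all genes. In the band from 10 to 20 kb around the members, no Osa-GFP-specific and no shared region was found, while 27.3% of all genes had 1 or more of either kind there. That band held 9 yw-only regions, at 6 of 10 members, against 34.9% of all genes with one. It also held 3 regions of a single Osa-GFP library, at 2 of 10 members, against 36.5% of all genes with one. At 20 to 50 kb, 9 of 10 members had an Osa-GFP-specific or shared region, against 57.3% of all genes. Osa-GFP-specific regions alone lay there at 7 of 10 members, against 41.8% of all genes. Of these regions odd had 6 and the other members 0 to 2, with 1 region counted for both slp1 and slp2.

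**Figure D3:**
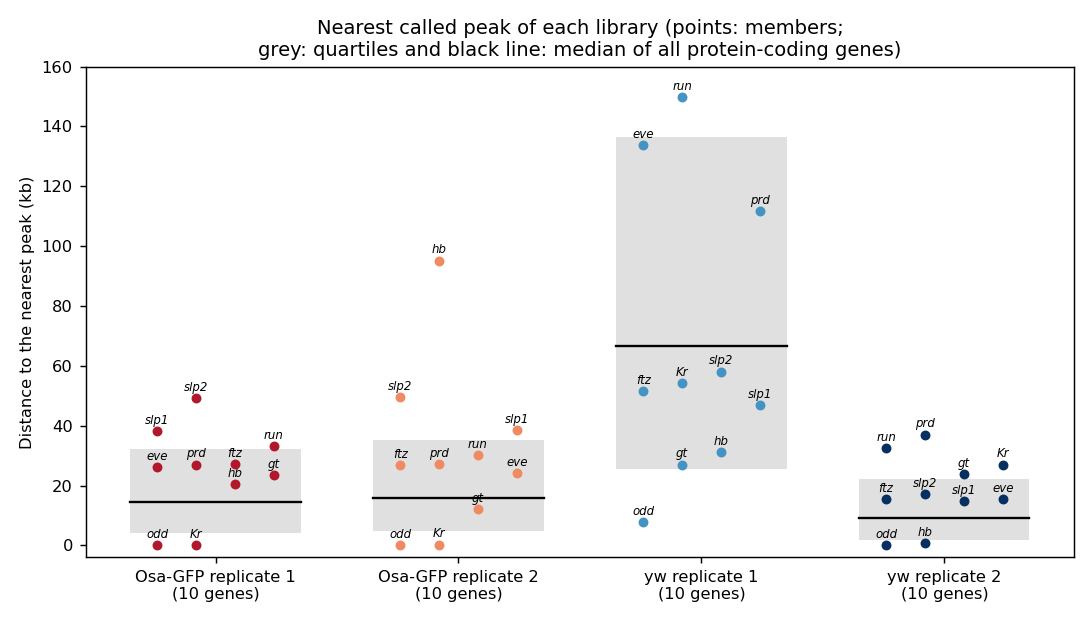
Distance in kb from each of the 10 genes to the nearest peak of each library (points), with the quartiles (grey) and median (black line) of all 13922 protein-coding genes. In both Osa-GFP libraries odd and Kr sit at or near 0, while slp1 and slp2 lie above the grey range. Above it too are run in Osa-GFP replicate 1 and hb, the farthest point, in Osa-GFP replicate 2.

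The share of a library's peaks that fell in the member windows overlapped between the genotypes. It was 0.0515% (3 of 5820 peaks, 95% Wilson interval 0.0175% to 0.151%) and 0.100% (5 of 4987, 0.0428% to 0.235%) for Osa-GFP replicates 1 and 2. It was 0.129% (1 of 774, 0.0228% to 0.728%) and 0.0662% (3 of 4535, 0.0225% to 0.194%) for yw replicates 1 and 2. Osa-GFP libraries averaged 0.0759% ± 0.0344 and yw libraries 0.0977% ± 0.0446 (SD, n = 2 each), a difference of -0.0218 percentage points with a two-sided exact permutation p of 0.67. With 6 assignments of the libraries the smallest p is 0.33, so no difference could have passed, and the direction turned without Osa-GFP replicate 1 or yw replicate 1. A member window held 0.30 and 0.50 peaks of Osa-GFP replicates 1 and 2 on average, against 0.978 and 0.823 for the windows of all genes and 0.698 and 0.588 for those of genes no longer than hb. For yw replicates 1 and 2 the averages were 0.10 and 0.30, against 0.147 and 0.986 for all genes and 0.113 and 0.795 for genes no longer than hb. The member windows thus held fewer peaks than the average gene window in yw replicate 2 as well. In yw replicate 1 the members' average rested on 1 peak, which is too few to compare.

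Other genes of the segmentation cascade were read in the same windows. A list of other gap, head gap and pair-rule genes, with drm and sob counted among them, held 11 genes. Of these, 10 had a region that both Osa-GFP libraries held, against 26.3% of all protein-coding genes. Only hkb, a terminal gap gene, had no peak at all. Osa-GFP-specific regions were found at 5 of them: 4 at drm and 2 at sob, both relatives of odd, 2 at tll, a terminal gap gene, and 1 each at kni, a gap gene also used in wing vein formation, and opa, a zinc finger pair-rule gene. The others, h, a bHLH pair-rule repressor, and knrl, oc, ems and btd, had 1 to 3 shared regions each and no Osa-GFP-specific one. Of the 7 genes in this list that are no longer than hb, 6 had a region of both Osa-GFP libraries and 1 had no peak, against 2 and 7 of the 10 members. Near odd, sob lies 23455 bp and drm 55801 bp below it, and all 6 Osa-GFP-specific regions at 20 to 50 kb from odd were on that side, from 3557739 to 3581113. The last of these overlapped sob, with folds of 6.80 and 6.85 for Osa-GFP replicates 1 and 2. Some of these regions are the same ones counted above at drm and sob.

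All 10 segment polarity genes, which act after the pair-rule genes and several of which also pattern the wing, had a region of both Osa-GFP libraries. Osa-GFP-specific regions were found at 7 of them, with 5 each at the ligand gene hh and the Wg antagonist gene nkd and 3 at the receptor gene ptc. Their median span was 10640 bp, against 2440 bp for the members, and of the 3 that are no longer than hb, 1 had an Osa-GFP-specific region and 3 had a region of both Osa-GFP libraries. Of 6 maternal genes that act before the gap genes, 4 had an Osa-GFP-specific region (bcd, nos, osk and tsl) and cad had no peak. Such a region lay at 15.9% of all protein-coding genes and 12.6% of those no longer than hb. The nearest region of both Osa-GFP libraries was 1142, 5315, 6533 and 0 bp from bcd, nos, osk and tsl. The osk window also held 7 peaks of yw replicate 2. Regions of both Osa-GFP libraries were also found at 4 of 4 wing selectors (vg, sd, ap and Bx), 3 of 5 eye determination genes (eya, so and dac) and 6 of 8 Hox genes. Over all protein-coding genes, 26.3% had such a region. Every gene of the wing, eye and Hox lists is longer than hb, the shortest being 10593 bp, so their windows were wider, as were those of most segment polarity genes. These lists were set beside the members as counts, and the differences between lists were not tested.

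**Figure D4:**
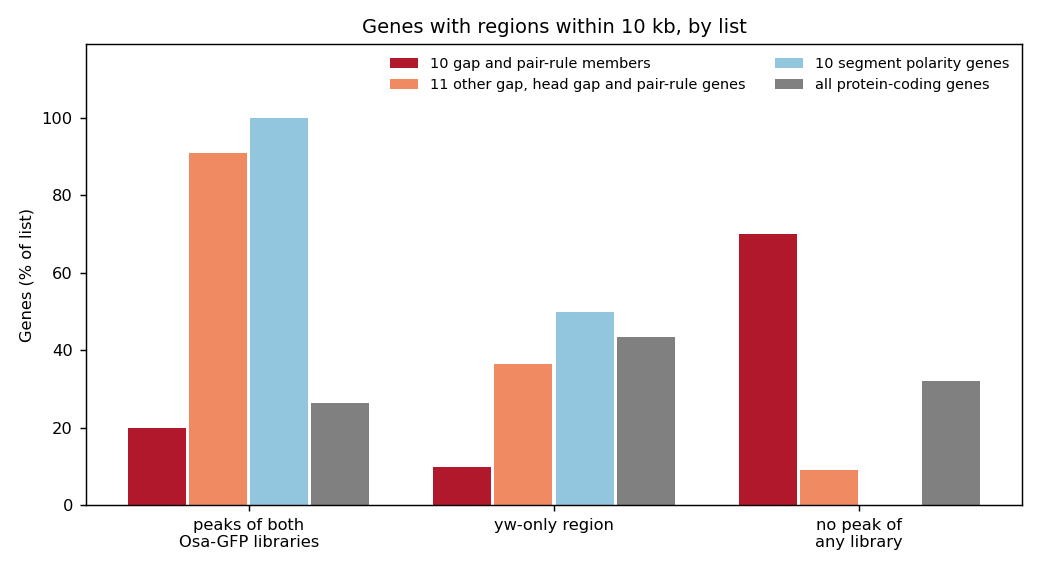
Share of genes (percent of each list) with a region of both Osa-GFP libraries, a yw-only region, or no peak of any library within 10 kb, for the 10 members, 11 other gap, head gap and pair-rule genes, 10 segment polarity genes and all protein-coding genes. The 11 other genes include drm and sob, relatives of odd. The bars have no error, since each is a count over a fixed list. The members have 20.0% in the first category and 70.0% in the last, against 26.3% and 32.0% of all genes.

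As a reading of the tissue label, the wing disc genes vg, nub, ap and sd all had a region of both Osa-GFP libraries, and nub, a POU-domain gene of the wing pouch, had 6 Osa-GFP-specific ones. The neuronal genes elav and nSyb and the fat body genes Lsp2 and Fbp1 had no region of both Osa-GFP libraries. Of all protein-coding genes, 26.3% had one. The wing disc genes span at least 15185 bp and the neuronal and fat body genes at most 13992 bp, so the wing disc windows were wider. Of the germline genes, nos had 1 Osa-GFP-specific region and vas none. Occupancy by Osa is not a marker of a cell type, so these values do not test the label.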

How the data were processed

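MACS2 2.1.2, Bowtie2 2.3.4.1 and Picard 2.2.4 are named in the submitters' processing notes, beside SAMtools 1.10, deepTools 2.4.1 and build dm6. Peaks were deposited as 1 narrowPeak list per library, so replicates were not pooled; no calling threshold is given in the sources used here. Each deposited fold is a ratio of summit fragments plus 1 over background plus 1, and p and q are deposited as −log10 values; the deposited integer score and the summit offset were used for no result, except the summit for 1 alternative. Folds were whole multiples of 1 step for 100% of peaks at a tolerance of 0.01, and a Poisson probability from the recovered fragments returned the deposited −log10 p to within 4.19e-05 where it was under 100. Intervals cover counting error only.

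Peaks on the 6 arms were merged and classed with Python 3.11.15 and pandas 2.3.3, and the merging was tested on simulated lists. Coordinates are 1-based. Gene spans came from RefSeq (Release 6 plus ISO1 MT), where h and nos are listed as hry and nanos. The planned motif search was not run, as no sequence was at hand. Members and lists were chosen with earlier results of these data known. Named genes were the members, the fixed lists and genes that overlap a described region.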

Additional observations from a re-analysis of the deposited data

How the results depend on the processing

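The 2 members with an Osa-GFP-specific region were 0 when peaks needed a −log10 q of 10, with lists trimmed to equal length (774 peaks) and by gene span only. They were 1 at −log10 q of 5, with 2 kb either side or when merging required 50% overlap. With 1 Osa-GFP library left, a peak of that library alone was enough for the class. Leaving out a yw library only removed yw peaks. Leaving out a library thus could not lower the count, which stayed at 2 members throughout. Their 2 Osa-GFP-specific regions were 0 at that −log10 q of 10, with equal lists and by span, and 1 with 2 kb or 50% overlap. They were 4 when a shared region needed both yw libraries, and 2 to 4 on leaving out a library (4 without yw replicate 2). At −log10 q of 5 the total stayed at 2, with 0 at Kr and 2 at odd. There the region at the upper end of odd became Osa-GFP-specific, since its yw replicate 2 peak had a −log10 q of 3.53. The 1 member with a shared region became 0 at either −log10 q, with equal lists and when a shared region needed both yw libraries, and ranged from 0 to 1 on leaving out a library (0 without yw replicate 2). The 2 shared regions became 0 under those settings, 1 with 2 kb, by span or by region centre, and 0 to 3 on leaving out a library. The 1 member with a yw-only region became 0 at either −log10 q and by span and 6 with 20 kb. It ranged from 0 to 2 on leaving out a library. With equal lists the count stayed at 1, but the member was odd in place of hb. The 2 yw-only regions became 0 at either −log10 q and by span, and 11 with 20 kb. They were 1 with 2 kb or equal lists, and 0 to 3 on leaving out a library. The 7 members with no peak (alternatives chosen after seeing the data) became 2 with 20 kb (13.7% of all genes), 9 by span (80.5%), 9 with equal lists (76.0%), 9 at −log10 q of 5 (59.3%) and 10 at −log10 q of 10 (74.8%); the others, leaving out a library included, gave 7 to 8. The share difference of -0.0218 points became 0 at −log10 q of 10 (no peak left in the windows) and turned to 0.0557 at −log10 q of 5, 0.0152 with 2 kb and 0.00759 by span. It was -0.0948 with 20 kb, -0.0646 with equal lists and -0.0318 by summit; leaving out a library gave -0.0533 to 0.00975. At the members other than odd and Kr, the 104 counts of Osa-GFP-specific regions under the alternatives were 0, as in the main setting. No Osa-GFP peak lay within 10 kb of those members, so only the 20 kb setting could have changed their counts. At odd or Kr, 12 of 26 such counts moved under the alternatives. The cause was not tested. No paired analysis was possible because the counts come from no test across libraries and nothing says that a replicate number pairs an Osa-GFP with a yw library. In these windows summits reached at most 10 fragments and a −log10 q of 8.84, so every count of regions there rests on peaks of few fragments.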
